A study of Mus musculus with 4 samples.

Results

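The genes described here are 53 genes of transforming growth factor beta (TGF-beta) and bone morphogenetic protein (BMP) signalling, chosen by symbol, with no threshold on their values but with earlier results of these data known, out of 54532 genes in a deposited count table. All 53 symbols were found, each in 1 row. RNA sequencing had been done on the C3H10T1/2 line, mouse mesenchymal stem cells that can be turned towards bone, cartilage, fat or muscle. The study asked what loss of DNMT1, the maintenance DNA methyltransferase, does to gene expression before and during early osteoblast (OB) differentiation.

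All cells were transfected with an siRNA for 48 h. The control library came from cells given a control siRNA and no induction, and the siDNMT1 library from cells given DNMT1 siRNA and no induction. The OB library came from cells given the control siRNA and then kept for 3 days in medium with ascorbic acid, glycerophosphate and dexamethasone, a synthetic glucocorticoid. The library labelled siDNMT1_OB came from cells given DNMT1 siRNA and then the same medium. Each group held 1 library, so no difference below has a replicate check and the 95% intervals cover counting error only. No molecular identifiers are mentioned in the sources used here, so duplicate reads may make the intervals too narrow even for that. The work was done in 1 cell line, and whether uninduced cells were kept in culture for the same 3 days is not given in the sources used here.

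The control library held 27367792 counts, the siDNMT1 library 25608719, the OB library 22296046 and the library labelled siDNMT1_OB 26912489. The knockdown was checked first. Levels are in CPM, the usual measure of counts relative to library size. Dnmt1 had 265 CPM (95% interval 259 to 271) in control and 132 (127 to 136) in siDNMT1, a log2 fold change of -1.01. It had 85.4 CPM (81.6 to 89.3) in OB and 93.1 (89.5 to 96.9) in the library labelled siDNMT1_OB, which was therefore not lower in Dnmt1 than OB. Every direction below that rests on this library is that of the library labelled siDNMT1_OB. Of 11 mesenchymal markers 10 passed the filter, and their summed level was between 26300 and 32500 CPM. Most of this sum came from Col1a1, Col1a2 and Vim, at 9640, 8880 and 5510 CPM in control, so it does not show whether the other markers were steady. Pdgfra had 128, 141, 705 and 413 CPM and Ly6a 145, 70.7, 134 and 93.2 in control, siDNMT1, OB and siDNMT1_OB. The osteoblast genes Alpl, Bglap and Sp7 had at most 8 counts in any library and Sost had none, and the list of 8 to which they belong had 3 tested genes. Ibsp had 1, 3, 6 and 17 counts and Dmp1 80, 62, 8 and 37 in control, siDNMT1, OB and siDNMT1_OB. The list of 8 summed to 627 and 304 CPM in control and siDNMT1 and to 261 and 361 CPM in the induced libraries. The sum was carried by Spp1, a matrix protein not limited to bone, at 548, 206, 187 and 271 CPM in the same order. Runx2, the early osteoblast transcription factor, had 2049, 2459, 1644 and 2327 counts in that order. A list of adipocyte markers summed to 40.8 and 44.1 CPM without induction and to 98.9 and 91.8 CPM in the induced libraries, with Fabp4 at 963 and 1305 counts there and Adipoq and Plin1 at no more than 2. A list of endothelial markers summed to 2.25 CPM in control and 6.21 in siDNMT1, then 3.18 in OB and 7.81 in siDNMT1_OB, nearly all of it Tek, while the defining markers Kdr, Cdh5 and Pecam1 had at most 8 counts. Epithelial markers summed to at most 1.03 CPM. The part of these lists in the results below was not tested. In bulk RNA, fewer cells of a type and less RNA per cell cannot be told apart.

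TGF-beta family ligands are secreted dimers, and those of the TGF-beta type are stored in the matrix bound to latent TGF-beta binding proteins. A ligand brings together type II and type I receptor kinases, which phosphorylate receptor SMADs. SMAD2 and SMAD3 serve TGF-beta and activin, SMAD1, SMAD5 and SMAD9 serve BMP, and both sets enter the nucleus with SMAD4. Secreted antagonists such as gremlin, noggin, chordin and follistatin hold ligands away from receptors, inhibitory SMADs and decoy receptors act inside or at the cell, and the ID genes are direct targets of the BMP branch. In mesenchymal progenitors BMP ligands promote bone and cartilage formation, and TGF-beta promotes early commitment and matrix production.

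Of the 53 genes, 42 passed a filter of a mean of at least 1 CPM over the 4 libraries and were tested, and each of these 42 also reached 1 CPM in every library, the lowest being 1.48 CPM for Fstl3 in siDNMT1. To be called higher or lower, a gene needed a log2 fold change of 1 or more in size, and a test of the reads of that pair of libraries, adjusted over all 13233 tested genes, had to be under 0.05. This rule compares libraries, not conditions. No count was found in any library for Bmp2, Bmp5, Bmp7, Gdf10 or Acvrl1, which allows up to 0.111 CPM in control and 0.117 in siDNMT1, then 0.133 in OB and 0.112 in siDNMT1_OB at a limit of 3 counts. Bmp6 had 0, 3, 0 and 4 counts in control, siDNMT1, OB and siDNMT1_OB, and Bmpr1b had 3 counts in siDNMT1_OB alone. Noggin (Nog) had 3 counts in OB and none elsewhere. Gdf5 had 1, 1, 4 and 6 counts. These 9 genes were therefore at or near the limit of detection throughout. Gdf6, a ligand of joint and cartilage formation, had 0, 1, 16 and 6 counts, at least 6.4-fold higher in OB than in control. Chrdl1, a chordin-like BMP antagonist, had 0, 0, 19 and 9 counts, at least 7.6-fold higher in OB than in control and at least 2.87-fold higher in siDNMT1_OB than in siDNMT1. Both were seen almost only in the induced libraries, at levels below the filter.

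Levels were compared between genes per length, as CPM per kb of exon. The most abundant of the genes was Fstl1, a secreted glycoprotein related to follistatin, at 288 in control and 275 in siDNMT1, then 590 in OB and 446 in siDNMT1_OB. Its mean of 400 lay at the 99.2 percentile of the tested genes. The BMP targets Id3 and Id1 followed, with means of 108 and 80.6, ahead of Ltbp3 at 63.3, Grem1 at 49.8 and Bmp4 at 43.8. The lowest of the 42 tested genes was the decoy receptor Bambi, with a mean of 0.705, at the 7.94 percentile.

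Among ligands, nearly all BMP signal on this scale came from Bmp4, which had 40.9 in control and 74.0 in siDNMT1, then 24.8 in OB and 35.6 in siDNMT1_OB out of BMP and GDF totals of 40.9, 74.0, 25.1 and 35.8. Tgfb3 was the most abundant TGF-beta ligand, at 20.9, 21.7, 17.5 and 19.5, whereas Tgfb1 stayed between 1.97 and 2.35 and Tgfb2 between 3.27 and 6.50. Among type I receptors, the BMP receptor Bmpr1a ranged only from 20.4 to 21.8. Tgfbr2, the receptor that binds TGF-beta itself, ranged from 7.59 to 39.0 and made up most of the type II total in control, OB and siDNMT1_OB (27.8, 48.8 and 23.6), but 7.59 of 17.2 in siDNMT1. Together the 53 genes held 0.438% of all counts in control and 0.439% in siDNMT1, and 0.588% and 0.506% in the induced libraries. Fstl1 alone gave 38361 of their 119917 counts in control and 34676 of 112472 in siDNMT1. In OB it gave 65600 of 131050 and in siDNMT1_OB 58618 of 136280. Without Fstl1 the share of the genes was not higher in the induced libraries.

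**Figure D1:**
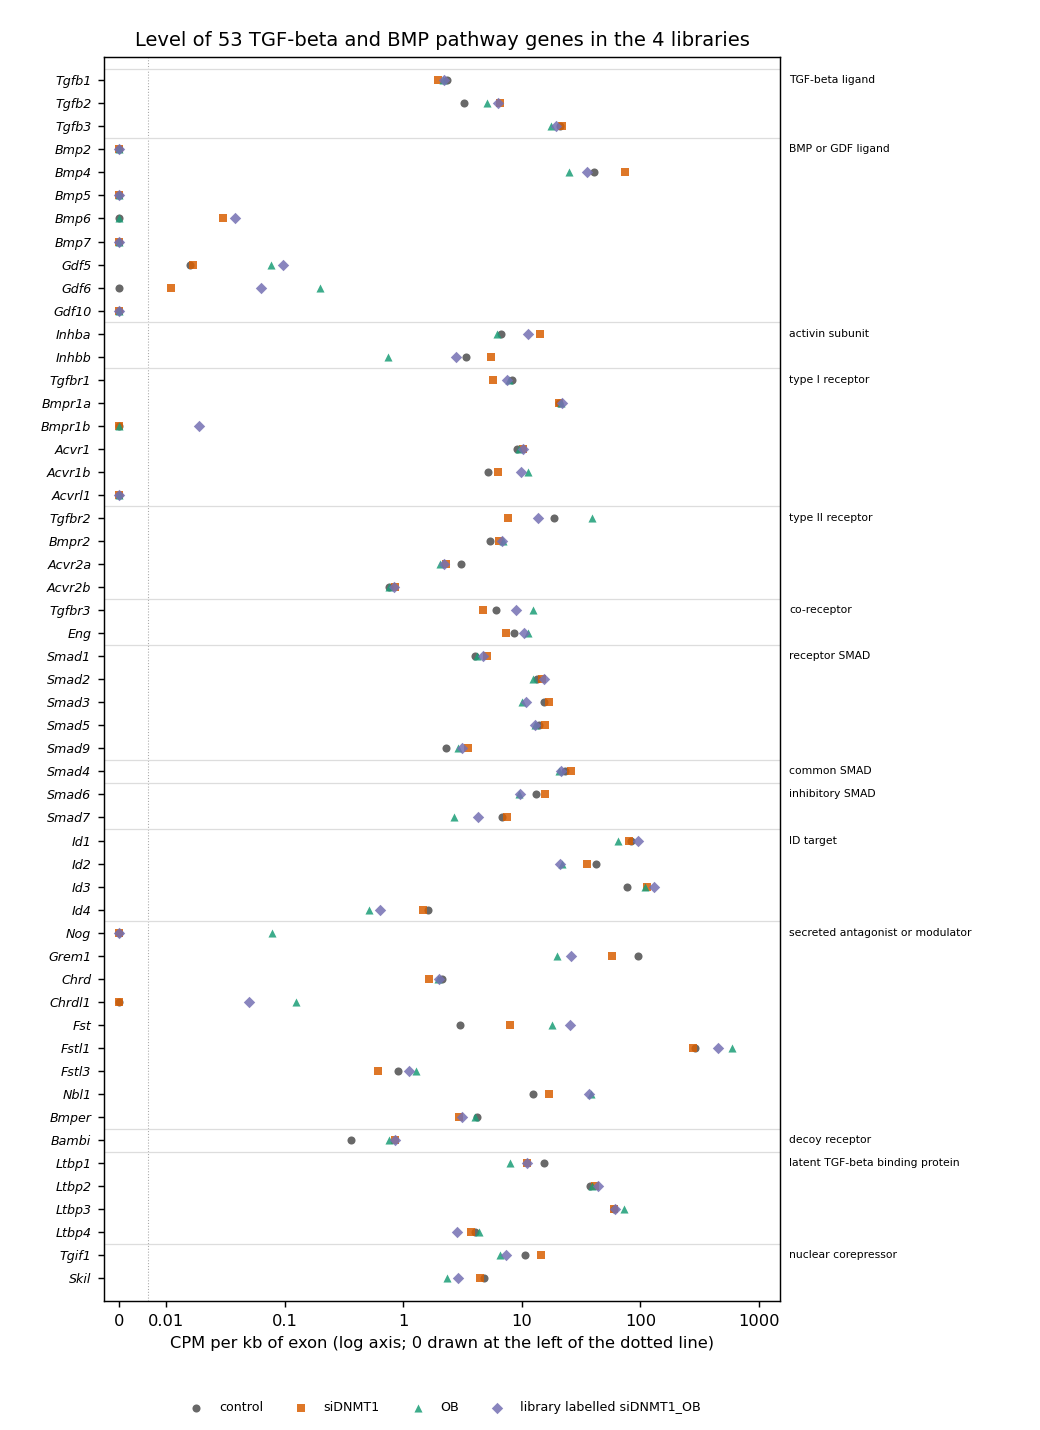
Level of each of the 53 genes in the 4 libraries, in CPM per kb of exon on a log axis, grouped by role, with 1 point per library. Fstl1 lies furthest right at 275 to 590, and among the 42 tested genes the points of Tgfbr2, Fst, Grem1 and Inhbb are spread widest. A level of 0 is drawn left of the dotted line.

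Without induction, 3 of the 42 tested genes were called higher in siDNMT1 than in control (7.14%, against 1.86% of all tested genes), and 1 was called lower (2.38%, against 1.33%). Those called higher were Inhba, Fst and Bambi, and the gene called lower was Tgfbr2. In the induced pair 1 gene, Inhbb, was called higher in siDNMT1_OB than in OB (2.38%, against 2.35% of all genes) and 1, Tgfbr2, was called lower (2.38%, against 1.35%). The shares in the induced pair were thus near those of all genes in the higher direction. The median log2 fold change of the 42 genes was 0.14 without induction and 0.10 in the induced pair, where the median of all genes was 0.01. Without induction 30 of the 42 lay within 0.5 of 0 on the log2 scale (all genes, 85.5%), and 35 did in the induced pair (all genes, 85.3%). The median size of the difference was 0.27 without induction, against 0.18 over all genes, and 0.17 in the induced pair, against 0.18.

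**Figure D2:**
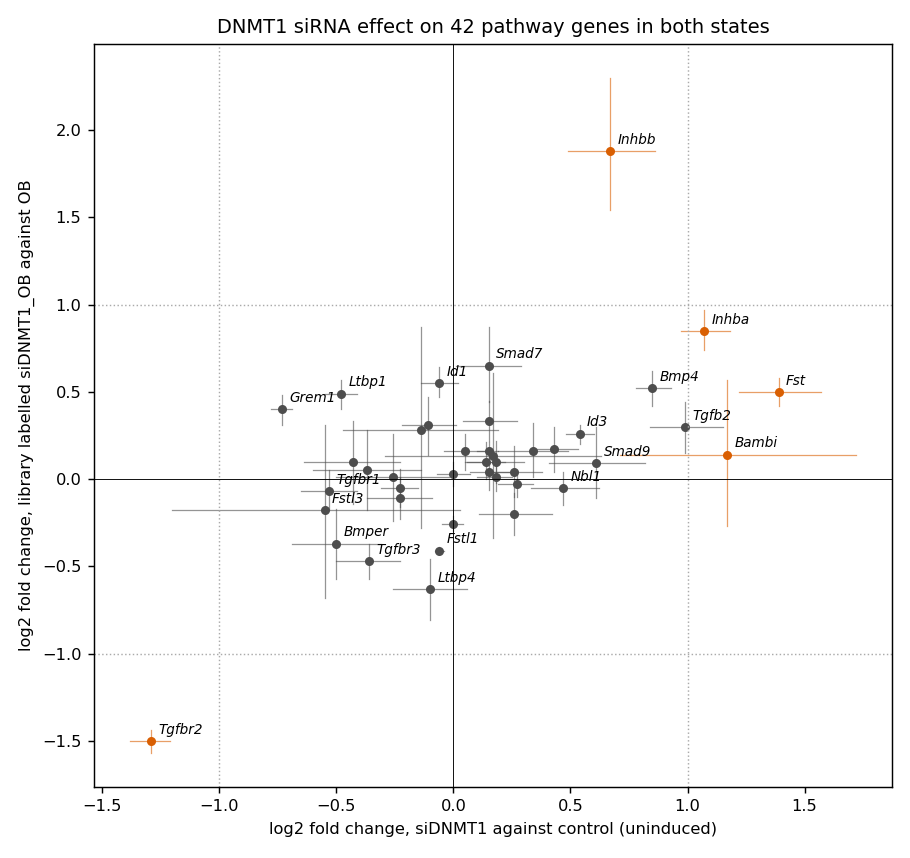
Log2 fold change of each tested gene with DNMT1 siRNA, without induction and in the induced pair, with 95% counting intervals as error bars. Tgfbr2 lies below -1 in both pairs, at -1.29 and -1.5, and Inhbb lies at 0.67 and 1.88.

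The receptor Tgfbr2 (chromosome 9, 116084293 to 116175360, minus strand) had the largest drop. It had 4133 counts in control and 1593 in siDNMT1, then 7225 in OB and 3012 in siDNMT1_OB. Both libraries with DNMT1 siRNA were below both libraries with control siRNA. In log2 terms it fell by 1.29 (interval -1.38 to -1.21) without induction and by 1.5 (-1.57 to -1.44) in the induced pair, 2.45-fold and 2.84-fold. Per length its level went from 18.6 to 7.59 and from 39.0 to 13.7 CPM per kb. No annotated gene overlapped its exons.

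The other TGF-beta receptors moved less. Tgfbr1, the type I partner of Tgfbr2, had 1450, 951, 1152 and 1301 counts in control, siDNMT1, OB and siDNMT1_OB, giving -0.53 (-0.65 to -0.41) without induction and -0.07 (-0.18 to 0.05) in the induced pair. The co-receptor Tgfbr3 (betaglycan), which presents ligand to Tgfbr2, had 1083, 795, 1814 and 1548 counts, at -0.36 (-0.50 to -0.23) and -0.47 (-0.57 to -0.37). It was lower with DNMT1 siRNA in both pairs without reaching the threshold. Endoglin (Eng) was at -0.23 and -0.11. Among activin and BMP receptors, Bmpr1a was within 0.03 of 0 in the induced pair, Bmpr2 was at 0.27 and -0.03, Acvr1 at 0.18 and 0.10, and Acvr2b at 0.17 and 0.13 with intervals that covered 0. Acvr2a was at -0.43 and 0.10, and 7.84% of its exon bases lie opposite Orc4, which had 864 to 1173 counts. Of the 10 tested receptors, 5 were above 0 and 5 below without induction, with a median of -0.11, and 4 were above and 6 below in the induced pair, with a median of -0.05.

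Of the 2 activin subunits, 1 was called higher with DNMT1 siRNA in each pair, Inhba without induction (all genes, 1.86%) and Inhbb in the induced pair (all genes, 2.35%). Inhba encodes the subunit of activin A (chromosome 13, 16011851 to 16031621, plus strand). It had 1164 counts in control and 2314 in siDNMT1, then 898 in OB and 1917 in siDNMT1_OB. Both libraries with DNMT1 siRNA were above both with control siRNA. It was called higher without induction, at 1.07 (0.97 to 1.18) or 2.10-fold, and stood at 0.85 (0.74 to 0.97) in the induced pair, just under the threshold.

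Inhbb, the subunit of activin B (chromosome 1, 119415465 to 119422248, minus strand), had 394 counts in control and 595 in siDNMT1, then 72 in OB and 320 in siDNMT1_OB. The OB library was the lowest by a wide margin. The difference with DNMT1 siRNA was 0.67 (0.49 to 0.86) without induction and 1.88 (1.54 to 2.30) in the induced pair, 3.76-fold and called. Summed per length, activin subunits went from 10.1 in control to 19.6 in siDNMT1, and from 6.96 in OB to 14.0 in siDNMT1_OB, in CPM per kb.

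All 6 tested ligands were above 0 in the induced pair and 5 of them without induction, but with total count or upper quartile scaling 1 fell just below 0 in the induced pair. Bmp4 (chromosome 14, 46383520 to 46390669, minus strand), a ligand that promotes bone and cartilage formation, had 2494 counts in control and 4261 in siDNMT1, then 1261 in OB and 2144 in siDNMT1_OB. In each pair the library with DNMT1 siRNA was higher, by 0.85 (0.78 to 0.93) and 0.52 (0.42 to 0.62), neither of which was called. Tgfb2 had 513, 965, 671 and 975 counts and stood at 0.99 (0.84 to 1.15) without induction, just short of the threshold, and at 0.30 (0.15 to 0.44) in the induced pair. Tgfb3 was at 0.05 and 0.16, and Tgfb1 at -0.26 (-0.50 to -0.02) and 0.01. The median of the 6 tested ligands was 0.76 without induction and 0.41 in the induced pair.

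To show the DNA next to genes called with DNMT1 siRNA in either pair, and only where the RefSeq promoter table held an entry, the 250 bases before the annotated start of Tgfbr2, Inhba and Inhbb are printed, with Grem1, whose difference changed sign with induction and by more than those of Ltbp1 and Acvr1b, which changed sign too. They are RefSeq sequences on GRCm38.p6, 5′ to 3′ on the strand of the gene, at chr9:116175364-116175613 (minus strand) for Tgfbr2, chr13:16011601-16011850 (plus strand) for Inhba, chr1:119422249-119422498 (minus strand) for Inhbb and chr2:113758649-113758898 (minus strand) for Grem1. Capitals mark CG dinucleotides, the sites at which DNMT1 copies methylation, which RNA counts do not measure.
Tgfbr2: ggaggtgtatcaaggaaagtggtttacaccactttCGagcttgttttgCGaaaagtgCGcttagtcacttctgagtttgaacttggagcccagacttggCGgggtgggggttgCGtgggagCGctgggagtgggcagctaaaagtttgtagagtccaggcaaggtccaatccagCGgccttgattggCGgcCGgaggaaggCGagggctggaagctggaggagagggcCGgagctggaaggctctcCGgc
Inhba: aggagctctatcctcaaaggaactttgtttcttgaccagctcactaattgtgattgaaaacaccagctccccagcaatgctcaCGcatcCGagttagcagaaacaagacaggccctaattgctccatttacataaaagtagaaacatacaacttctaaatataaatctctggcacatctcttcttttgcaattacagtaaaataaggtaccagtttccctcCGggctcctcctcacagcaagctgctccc
Inhbb: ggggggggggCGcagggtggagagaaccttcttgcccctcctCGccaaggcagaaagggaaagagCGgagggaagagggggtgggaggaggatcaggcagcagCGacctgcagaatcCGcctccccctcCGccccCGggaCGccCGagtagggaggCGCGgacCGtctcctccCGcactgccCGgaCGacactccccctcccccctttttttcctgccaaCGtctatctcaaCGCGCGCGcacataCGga
Grem1: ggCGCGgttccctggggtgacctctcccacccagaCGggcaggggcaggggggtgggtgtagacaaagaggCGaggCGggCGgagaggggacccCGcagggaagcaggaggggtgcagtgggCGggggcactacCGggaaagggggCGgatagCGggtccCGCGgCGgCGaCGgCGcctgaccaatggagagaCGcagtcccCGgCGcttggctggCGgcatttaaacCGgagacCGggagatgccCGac

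The 4 windows differed in CG content, with 12 CG dinucleotides in Tgfbr2, 3 in Inhba, 21 in Inhbb and 24 in Grem1. Of the 53 genes, 37 had an entry in the RefSeq promoter table. Their windows had a median of 22 CG dinucleotides (quartiles 15 to 27), against 6 (2 to 16) over 32851 promoters. Bases G and C made up 58.4% of the Tgfbr2 window, 43.2% of Inhba, 68.0% of Inhbb and 72.0% of Grem1. Of the 4, the Inhba window was lowest and the Grem1 window highest on both measures. The Inhba window lies within the span of B230303A05Rik but in none of its exons, and the other windows overlap no annotated gene. Each window was searched on both strands for SMAD motifs. GGCGCC, bound by BMP receptor SMADs, was in 9 of 37 windows (24.3%), against 9.59% of all promoters, and among the 4 printed windows in Grem1 alone. This motif itself holds a CG dinucleotide, and the 2 sets of windows differ in CG content. No set matched for CG content was compared, so the shares do not show an excess of SMAD sites. GTCTAGAC, the SMAD3 and SMAD4 palindrome, was in 0 of 37, against 0.167%, and CAGACA, which holds the SMAD box, was in 5 of 37 (13.5%), against 17.1%. A match describes letters only.

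Among secreted antagonists and the decoy receptor, 2 of 8 tested genes were called higher without induction (all genes, 1.86%). In the induced pair 0 were called higher (all genes, 2.35%). Fst encodes follistatin, which binds and neutralises activins (chromosome 13, 114452290 to 114458951, minus strand). It had 374 counts in control and 928 in siDNMT1, then 1878 in OB and 3142 in siDNMT1_OB, lowest in control and highest in siDNMT1_OB. It was 2.63-fold higher in siDNMT1 than in control, at 1.39 (1.22 to 1.57), and at 0.50 (0.42 to 0.58) in the induced pair. Bambi, a pseudoreceptor without a kinase domain, had 50 counts in control and 109 in siDNMT1, then 87 in OB and 114 in siDNMT1_OB. The control library was the low one, and the differences were 1.17 (0.71 to 1.72) and 0.14 (-0.27 to 0.57).

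Grem1 encodes gremlin 1, an antagonist of BMP2, BMP4 and BMP7 (chromosome 2, 113746164 to 113758646, minus strand). It had 10771 counts in control and 6132 in siDNMT1, then 1859 in OB and 2900 in siDNMT1_OB. The difference was -0.73 (-0.78 to -0.69) without induction and 0.40 (0.31 to 0.48) in the induced pair, on opposite sides of 0. Fstl1 was at -0.06 (-0.08 to -0.04) and -0.41 (-0.42 to -0.39). Nbl1, a DAN family antagonist, was at 0.47 (0.33 to 0.62) and -0.05 (-0.15 to 0.04). Bmper, a BMP-binding regulator of the endothelium, was at -0.50 and -0.37, and chordin (Chrd) at -0.37 and 0.05. Fstl3, at 38 to 73 counts, was at -0.55 and -0.18 with intervals that covered 0, and 47.3% of its exon bases lie opposite Prss57, which had at most 6 counts.

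Of the 8 SMAD genes 0 were called in either pair, where the shares of all genes called were between 1.33% and 2.35% per direction. Without induction all 8 were above 0, between 0.14 and 0.61 with a median of 0.17, and this held with total count, upper quartile and DESeq2 scaling. In the induced pair all 8 were again above 0, between 0.01 and 0.65 with a median of 0.10, but with total count or upper quartile scaling 1 of them fell just below 0. There the counting intervals of Smad3, Smad4, Smad5, Smad6 and Smad9 covered 0. Of all tested genes, 49.7% were above 0 without induction and 52.2% in the induced pair. Smad9 was highest without induction, at 0.61 (0.41 to 0.82), and at 0.09 in the induced pair. Smad7, the inhibitory SMAD that TGF-beta induces, had 835, 873, 275 and 513 counts and was highest in the induced pair, at 0.65 (0.44 to 0.87), against 0.15 without induction.

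The 4 ID genes, known as targets of the BMP branch, were not called with DNMT1 siRNA, where at most 2.35% of all genes were called per direction. Id1 had 2620 counts in control and 2380 in siDNMT1, then 1692 in OB and 2935 in siDNMT1_OB, at -0.06 (-0.14 to 0.02) without induction and 0.55 (0.47 to 0.64) in the induced pair. Id3 had 3771, 5169, 4428 and 6269 counts, at 0.54 and 0.26, and was above 0 in both. Id2 was at -0.23 and -0.05. Among proteins that hold latent TGF-beta in the matrix, Ltbp1 had 4369, 2960, 1872 and 3102 counts, at -0.48 (-0.55 to -0.41) without induction and 0.49 (0.40 to 0.57) in the induced pair. Ltbp4 was at -0.10 and -0.63, Ltbp3 at -0.26 in the induced pair and Ltbp2 at 0.15 and 0.16, with 9.34% of its exon bases opposite D030025P21Rik, which had 75 to 355 counts. The corepressor Tgif1 was at 0.43 and 0.17, and Skil at -0.11 and 0.31.

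The uninduced and induced pairs share no library, so their signs can be set side by side. Of the 42 genes, 31 (73.8%) had the same sign in both, against 53.3% of all tested genes, with 21 above 0 in both, 10 below 0 in both and 11 on opposite sides. The counting intervals of 11 genes (26.2%, against 9.91% of all genes) lay above 0 in both pairs, and those of 4 (9.52%, against 8.51%) lay below 0 in both. The difference was smaller in size in the induced pair for 27 genes (64.3%), against 51.1% of all genes.

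The difference between the 2 siDNMT1 effects was taken as the effect in the induced pair minus the effect without induction. It was at least 1 for 2 genes (4.76%, against 3.27% of all genes) and at most -1 for 1 gene (2.38%, against 2.95%). Those above were Inhbb, at 1.21 (0.80 to 1.62), and Grem1, at 1.13 (1.03 to 1.22), and the gene below was Bambi, at -1.03 (-1.66 to -0.40), a count that went to 0 with a prior count of 5 or a filter of 5 CPM. Ltbp1 stood at 0.96 (0.86 to 1.07), Id1 at 0.61, Tgfb2 at -0.70 and Fst at -0.89 (-1.08 to -0.70). The difference for Tgfbr2 was -0.21 (-0.32 to -0.11), small beside its fall in each pair. Because each effect rests on 1 library a group, whether these effects differ between induced and uninduced cells was not tested.

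**Figure D3:**
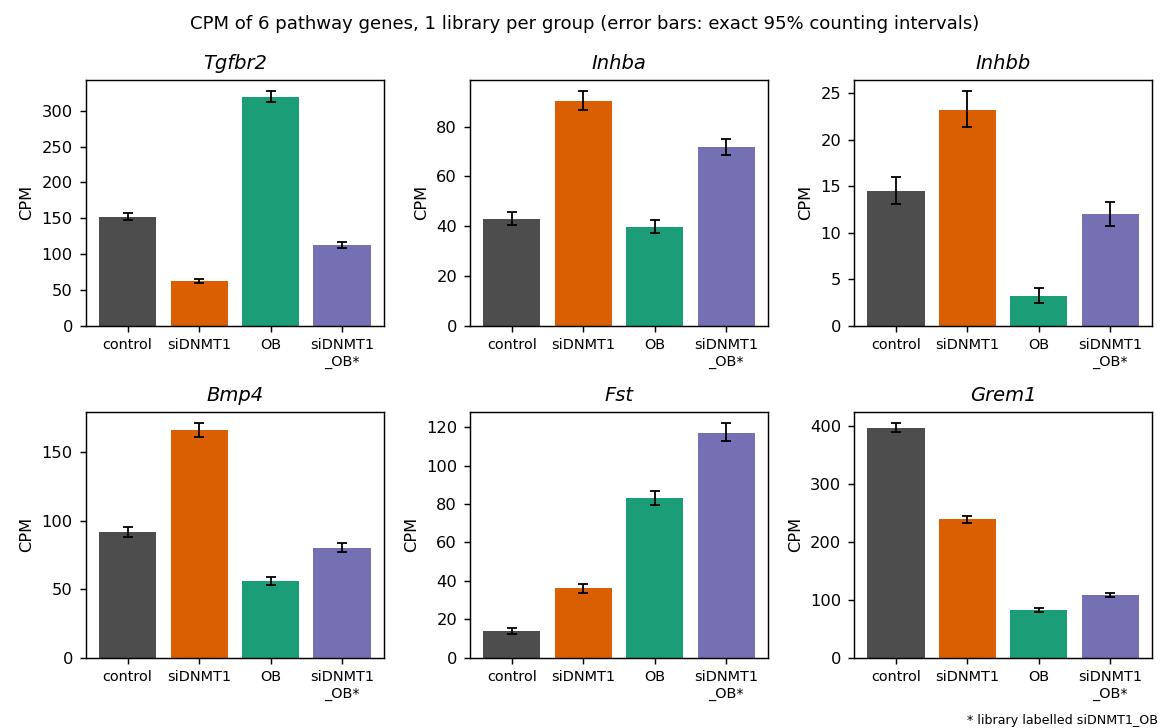
Level in CPM of Tgfbr2, Inhba, Inhbb, Bmp4, Fst and Grem1 in control, siDNMT1, OB and siDNMT1_OB, with exact 95% counting intervals as error bars. Tgfbr2 is low in both libraries with DNMT1 siRNA, at 62.2 and 113 CPM, and Grem1 is low in both induced libraries, at 82.2 and 108 CPM.

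With OB induction after control siRNA, 7 of the 42 tested genes were called higher than in control (16.7%, against 10.6% of all genes) and 5 were called lower (11.9%, against 7.10%). The median log2 fold change was -0.07, against 0.01 over all genes, and the median size 0.47, against 0.39. Those called higher were Fst, Nbl1, Acvr1b, Tgfbr2, Fstl1, Bambi and Tgfbr3. Those called lower were Grem1, Inhbb, Id4, Smad7 and Skil. With DNMT1 siRNA, 2 genes were called higher in siDNMT1_OB than in siDNMT1 (4.76%, against 6.82%), Fst and Nbl1. Another 3 were called lower (7.14%, against 2.71%), Id4, Grem1 and Bmp4. This comparison rests on the library labelled siDNMT1_OB.

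**Figure D4:**
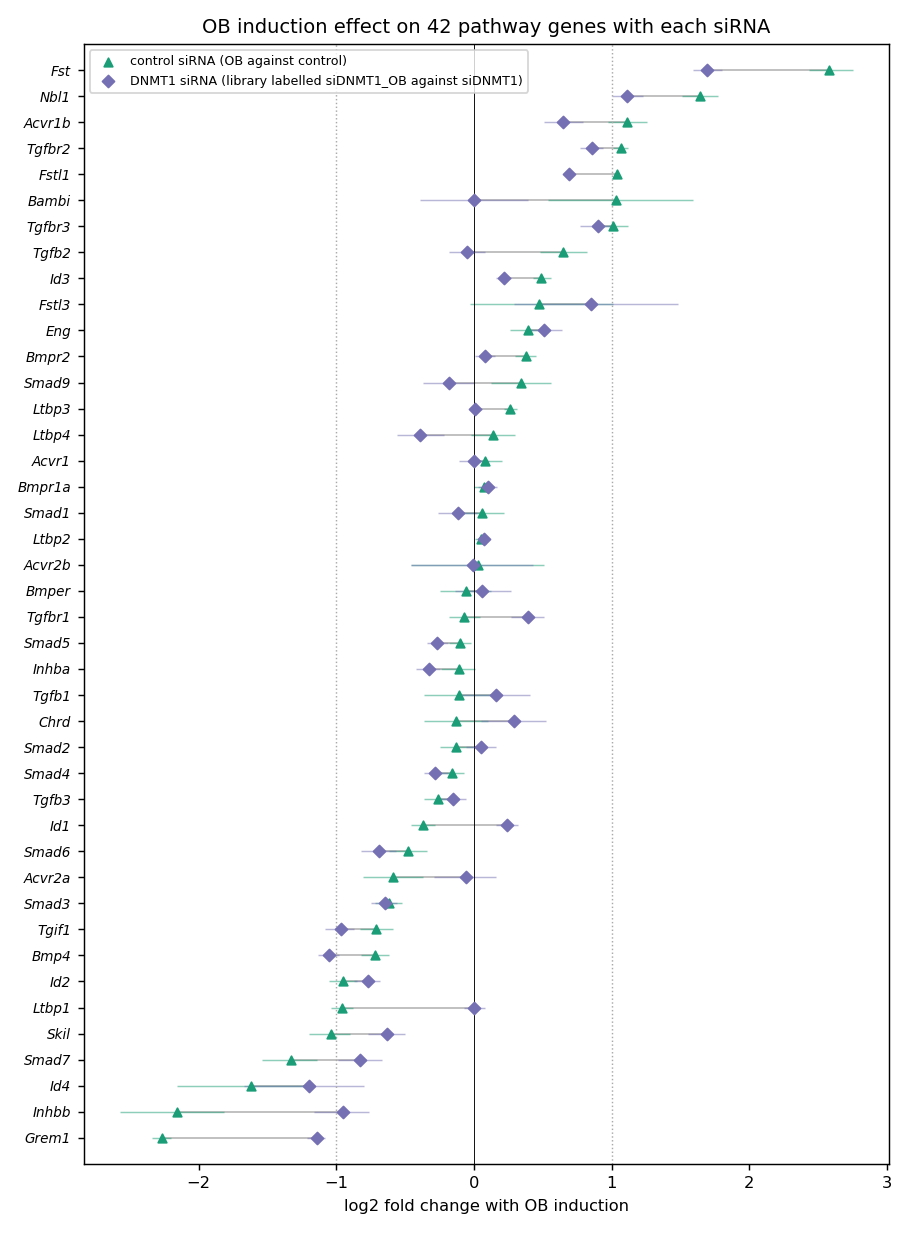
Log2 fold change of each tested gene with OB induction, after control siRNA and after DNMT1 siRNA, with 95% counting intervals as error bars. Fst is furthest right at 2.58 and 1.69, and Grem1 is furthest left after control siRNA at -2.27, with -1.14 after DNMT1 siRNA.

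Of the 8 tested antagonists and modulators, 4 were called higher and 1 lower in OB than in control (all genes, 10.6% and 7.10%). Chrd at -0.13, Bmper at -0.06 and Fstl3 at 0.47 (-0.03 to 1.01) were not called. Fst was 6.02-fold higher in OB than in control, at 2.58 (2.43 to 2.75), and 3.24-fold higher in siDNMT1_OB than in siDNMT1, at 1.69 (1.59 to 1.80). Nbl1 had 678 counts in control and 888 in siDNMT1, then 1761 in OB and 2008 in siDNMT1_OB, and was higher in both induced libraries, at 1.64 (1.51 to 1.77) and 1.11 (1.00 to 1.23). Fstl1 had 38361, 34676, 65600 and 58618 counts, at 1.04 (1.02 to 1.05) and 0.69 (0.68 to 0.71). Grem1 was 4.83-fold lower in OB than in control, at -2.27 (-2.34 to -2.20), and 2.21-fold lower with DNMT1 siRNA, at -1.14 (-1.21 to -1.08). Both induced libraries were below both uninduced ones for Grem1 and above both for Fst, Nbl1 and Fstl1. Bambi was called higher in OB, at 1.03 (0.54 to 1.59), and had equal CPM, to 2 decimals on the log2 scale, in the libraries with DNMT1 siRNA.

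Of the 10 tested receptors, 3 were called higher in OB and 0 lower, where the shares of all genes were 10.6% and 7.10%. Tgfbr2 was 2.10-fold higher, at 1.07 (1.01 to 1.12), and at 0.86 (0.77 to 0.94) with DNMT1 siRNA. Acvr1b, the activin type I receptor, had 624 counts in control and 708 in siDNMT1, then 1126 in OB and 1161 in siDNMT1_OB, at 1.11 (0.97 to 1.26) and 0.65 (0.51 to 0.79). Its counts were higher in both induced libraries than in both uninduced ones. Tgfbr3 was at 1.01 (0.90 to 1.12) and 0.90 (0.77 to 1.02). Acvr2a was at -0.59 (-0.81 to -0.37) in OB, Bmpr2 was at 0.38, Eng at 0.39, and Tgfbr1, Bmpr1a, Acvr1 and Acvr2b were within 0.08 of 0.

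Of the 6 tested ligands, 5 were below 0 in OB and 1, Tgfb2, was above, at 0.65 (0.48 to 0.82), and among the 8 SMADs 1 was called lower, where the share of all genes was 7.10%. Inhbb was 4.56-fold lower in OB, at -2.16 (-2.57 to -1.82), and at -0.95 (-1.16 to -0.76) with DNMT1 siRNA. Bmp4 was at -0.72 (-0.82 to -0.62) and -1.05 (-1.13 to -0.98), the latter 2.08-fold lower and called. Inhba was at -0.11 (-0.24 to 0.01) and -0.33 (-0.42 to -0.25). The inhibitory Smad7 was 2.53-fold lower, at -1.33 (-1.54 to -1.14), and at -0.83 with DNMT1 siRNA, while Smad6, which inhibits the BMP branch, was at -0.48 and -0.69. Smad3 was at -0.62 and -0.65, and Smad1, Smad2, Smad4 and Smad5 were within 0.28 of 0 in both comparisons.

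Of the ID genes, Id4 had 170 counts in control and 146 in siDNMT1, then 45 in OB and 65 in siDNMT1_OB, so both induced libraries were low. It was at -1.62 (-2.16 to -1.17) and -1.20 (-1.67 to -0.80) and called in both. Id2 was just short of the threshold in OB, at -0.95 (-1.05 to -0.85), and at -0.77 with DNMT1 siRNA. Id1 was at -0.37 (-0.46 to -0.28) after control siRNA and 0.24 (0.16 to 0.32) after DNMT1 siRNA, and Id3 at 0.49 and 0.22. The ID genes thus did not move as a group. Skil, a SMAD corepressor, had 1267, 1111, 512 and 749 counts, at -1.04 (-1.20 to -0.90) and -0.63 (-0.77 to -0.50), and Tgif1 was at -0.71 and -0.97. Ltbp1 was at -0.96 (-1.04 to -0.88) in OB, with no difference to 2 decimals after DNMT1 siRNA, and the other latent binding proteins were within 0.39 of 0.

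The OB effects after control and after DNMT1 siRNA share no library either. They had the same sign for 29 of the 42 genes (69.0%), against 79.6% of all tested genes, with 14 above 0 in both, 15 below 0 in both and 13 on opposite sides. Both counting intervals lay above 0 for 10 genes (23.8%, against 25.8% of all genes) and below 0 for 13 (31.0%, against 26.4%). The effect was smaller in size after DNMT1 siRNA for 25 genes (59.5%), against 68.0% of all genes. In all, 14 of the 42 tested genes (33.3%, against 20.7% of all tested genes) were called in at least 1 of the 4 comparisons and 28 in none.

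Genes outside the 53 were counted from lists of the same pathway. Of 24 TGF-beta targets, all tested, 1 was called higher and 0 lower without induction (all genes, 1.86% and 1.33%), and 5 higher and 0 lower in the induced pair (all genes, 2.35% and 1.35%), with medians of 0.22 and 0.26. Acta2, smooth muscle actin, had 26761 counts in control and 87394 in siDNMT1, then 25413 in OB and 98223 in siDNMT1_OB, and was higher with DNMT1 siRNA in both pairs, at 1.79 (1.77 to 1.81) and 1.71 (1.69 to 1.73). Calls in the induced pair also held Thbs1, an activator of latent TGF-beta, at 2.08 with 2974 and 14865 counts, Ctgf, a matricellular growth factor, at 1.59, and the smooth muscle genes Cnn1, at 3.57 with 11 and 177 counts, and Tagln, at 1.49 with 22 and 77 counts. Cnn1 passed the filter only through siDNMT1_OB, the library in which it was high, and its call there is a description. Without it 4 of 23 were called higher in the induced pair, a count added after the data were seen. Tagln falls outside the rule for named genes and was named after its value was seen. Whether these genes differ between the pairs was not tested.

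With induction after control siRNA, 6 of the TGF-beta targets were called higher and 4 lower (all genes, 10.6% and 7.10%), or 5 and 4 of 23 without Cnn1. Postn, a matrix protein of bone and connective tissue, had 14523 counts in control and 24241 in siDNMT1, then 132244 in OB and 123314 in siDNMT1_OB, at 3.45 (3.42 to 3.47). Lox, which crosslinks collagen, was at 1.53. The immediate early gene Junb was at -1.43, and Cnn1 had only 2 counts in control and 11 in OB, with a wide counting interval of 0.53 to 5.94 on the log2 scale. Other calls, named after their values were seen, were Cyr61 at -1.38 and Timp1 at -1.43, with Tgm2, Cdkn2b and Tgfbi between 1.04 and 1.13. With DNMT1 siRNA, 5 of the list were called higher and 1, Junb, lower (all genes, 6.82% and 2.71%), or 4 and 1 without Cnn1.

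Of 15 BMP targets 11 were tested. Of these, 1 was called higher without induction (all genes, 1.86%) and 0 in the induced pair (all genes, 2.35%). The gene called was Hey1, a transcription factor also downstream of Notch. It had 37 counts in control and 112 in siDNMT1, then 16 in OB and 38 in siDNMT1_OB. Its difference was 1.63 (1.13 to 2.26) without induction and 0.93 (0.13 to 1.95) in the induced pair. The median of the 11 genes was 0.35 without induction and 0.25 in the induced pair. In OB against control 2 were called higher and 1 lower (all genes, 10.6% and 7.10%), among them the cartilage transcription factor Sox9 at 1.06 and Tnfrsf11b, the decoy receptor for RANKL, at -1.45. With DNMT1 siRNA, 1 was called higher and 2 lower (all genes, 6.82% and 2.71%), the latter Hey1 at -1.57 and Tnfrsf11b at -1.46. Other components of the pathway numbered 47, of which 28 were tested, with 0 called in either siDNMT1 comparison, near the shares of 1.33% to 2.35% of all genes. In OB against control 2 were called higher and 0 lower (all genes, 10.6% and 7.10%), of which Fbn2, a microfibril protein, was at 1.55 and Htra3, a secreted protease, at 1.40. Their medians, -0.01 and 0.03 with DNMT1 siRNA, were near that of all genes.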

How the data were processed

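Poly(A) RNA of 4 libraries was compared, 1 per group. Per the submitters' processing notes, the authors trimmed reads with Trimmomatic, aligned them to mm10 with HISAT2 and counted them with featureCounts, and deposited raw counts per gene in whole numbers. Versions, strand use and the treatment of multi-mapping reads are not given in the sources used here, so overlapping genes on opposite strands may share counts. Coordinates are those of the deposited table.

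From the counts, genes with a mean of at least 1 CPM were kept (13233 of 54532, 24.3%). TMM factors and CPM came from edgeR 4.0.16 in R 4.3.3, and log2 fold changes used a prior count of 2. The study used edgeR, whose quasi-likelihood test cannot be run on a pair of single libraries. A call therefore needed a log2 fold change of at least 1 and an exact binomial test of reads, with Benjamini-Hochberg adjustment, under 0.05. Intervals were Clopper-Pearson for folds, exact Poisson for CPM and normal for differences of effects, all at 95%, and the floor was 3 counts. The scripts were tested on simulated data. Other steps used Python 3.11.15, pandas 2.3.3, scipy 1.17.1 and matplotlib 3.10.9. Nothing says that the libraries came from separate cultures.

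Alternatives were total count, upper quartile and DESeq2 1.42.0 scaling, prior counts of 0.5 and 5, other filters, a threshold of 1.5, no read test and an additive edgeR quasi-likelihood fit. By rule, counts in every library were given for genes called at least once and for genes below the filter, and the others by values or ranges. Tgfbr1, Tgfb2, Id1, Id3 and Ltbp1, never called, were also given in every library, a choice made after their values were seen. From each further list, up to 4 called genes furthest from 0 were named for both siDNMT1 comparisons and for OB against control. Members and lists were chosen with earlier results of these data known. Some genes of the further lists are counted but not reported by name here.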

Additional observations from a re-analysis of the deposited data

Results flagged for a closer look

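Of the 42 tested genes of the pathway, 4 had effects on opposite sides of 0 with counting intervals that excluded 0 on both sides. The matching share over all 13233 tested genes was not counted, so these 4 are not shown to be unusual. The siDNMT1 effect on Grem1 was 1.13 higher in the induced pair than without induction on the log2 scale (from -0.73 to 0.40), that on Ltbp1 was 0.96 higher (from -0.48 to 0.49), and that on Acvr1b differed by -0.46 (from 0.26 to -0.20). The OB effect on Id1 was 0.61 higher with DNMT1 siRNA than with control siRNA (from -0.37 to 0.24). With 1 library per group these differences were not tested, and each rests on the library labelled siDNMT1_OB, whose Dnmt1 level was not below that of OB.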

How the results depend on the processing

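No paired analysis was possible because each group holds 1 library, and for the same reason no replicate could be left out. Of 308 values for genes called at least once, 306 kept their side of the threshold, and no called value changed sign, under the alternative scalings and prior counts and without the library labelled siDNMT1_OB, a setting added after the data were seen. The other 2 fell short in OB against control, Bambi at 0.99 with a prior count of 5 and Skil at -0.99 with upper quartile scaling. The 308 values include comparisons in which the gene was not called. Every setting reuses the same libraries, so this agreement does not bear on spread between cultures. Tgfb2, at 0.99 without induction, reached 1.0 with total count scaling and 1.02 with upper quartile scaling, which made 4 members called higher under each. Members' medians stayed within 0.10 to 0.17 (siDNMT1 against control), 0.07 to 0.11 (siDNMT1_OB against OB), -0.07 to 0.0 (OB against control) and -0.01 to 0.02 (siDNMT1_OB against siDNMT1). Of 204 counts and medians, 167 stayed the same by the rule used, within 1.5 times for counts and within 0.12 for medians, and 37 moved.

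A threshold of 1.5, stricter by construction, left 0 members higher and 0 lower without induction, 2 higher and 3 lower in OB against control, and 1 higher and 0 lower in siDNMT1_OB against siDNMT1. The additive fit, with 1 residual degree of freedom, gave 0 members in either direction for the siDNMT1 term, hence 0 and 0 in both siDNMT1 comparisons. It also gave 0 of all 13233 tested genes for this term. At an unadjusted p under 0.05 it gave 9 of the 42 members, against 1148 of all tested genes. The smallest adjusted p of a member was 0.135, for Tgfbr2. The OB term of this fit gave 6 members higher and 10 lower, 16 of the 42, against 2786 of all 13233 tested genes. Counts from this fit need an adjusted p under 0.05 but no size of change. Each term also takes both states of the other treatment together, so these counts and the calls above do not measure the same thing. Members whose siDNMT1 effect was lower in the induced pair by at least 1 numbered 0 with a prior count of 5, 4 with no filter and 0 with a mean of at least 5 CPM, settings added after the data were seen.

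Over all genes, the counts called higher with no filter, with a mean of at least 5 CPM and with a threshold of 1.5 were 434, 113 and 91 without induction, 468, 179 and 73 in the induced pair, and 2128, 882 and 732 in OB against control. Those called lower were 318, 88 and 47, then 414, 72 and 38, and 484 with a threshold of 1.5 in OB against control. In siDNMT1_OB against siDNMT1, 530 and 441 were called higher with a mean of at least 5 CPM and with a threshold of 1.5, and 591, 207 and 73 lower with the 3 settings. Filters changed how many genes were tested. At this depth, genes under 3 counts cannot be compared, and spread between cultures was not measured.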
